A study of Homo sapiens with 9 samples.

Results

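F-box proteins are the substrate-binding subunits of SCF ubiquitin ligases, and the messenger RNAs (mRNAs) described here are those of the FBXW, FBXL and FBXO genes. Members were the protein-coding genes whose symbol is FBXW, FBXL or FBXO followed by a number and at most 1 letter, which gave 61 of the 30956 genes in the deposited table. They comprised 10 FBXW, 17 FBXL and 34 FBXO genes, and 2 pseudogenes were left out. RNA immunoprecipitation sequencing (RIP-seq) had been used to recover RNA held by V5-tagged CNOT7 from HEK293T cells, a human embryonic kidney line. The tagged CNOT7 carried a substitution that impairs its nuclease activity. The labels list 3 RIP libraries and 6 inputs, all of cytoplasmic RNA, and of the inputs 3 had been treated with doxycycline (3 µg/mL, 24 h) while 3 had not. The labels do not say whether the RIP cells had received doxycycline, and the series' design text names HEK293 rather than HEK293T cells. A precipitate lacking the tag was not analysed here, so RNA that sticks to the beads or the antibody was not subtracted.

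CNOT7 is a nuclease subunit of CCR4-NOT, the complex that shortens the poly(A) tails of cytoplasmic mRNAs and so sets how long many of them last. An SCF ligase is built on the cullin CUL1, whose adaptor SKP1 grips the F-box of an exchangeable substrate receptor and whose RING partner RBX1 brings in the ubiquitin-conjugating enzyme. The letter after FBX names the part that binds the substrate, WD40 repeats in FBXW proteins and leucine-rich repeats in FBXL proteins, while FBXO proteins carry other domains. Several receptors act on cell cycle regulators or signalling proteins. An mRNA that is high in the RIP relative to the input made up a larger part of the precipitated RNA than of the extract, and no half-life was measured.

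The libraries held 37140622, 40764899 and 38229122 reads in genes for RIP 1 to 3, against 38911674, 37290120 and 38918356 for the 3 input columns. The names of these input columns do not tell whether the cells had doxycycline. CNOT7 itself averaged 86982 ± 11495 normalized counts in the RIP and 24800 ± 498 in these inputs (SD, n = 3 each). The mean over the remaining 3 inputs, derived from the deposited mean over 9 libraries, was 4240 for CNOT7. Reads of the tagged construct and of the cells' own CNOT7 were not told apart here. CNOT1, the scaffold of the complex, averaged 144350 ± 1397 in the RIP and 35315 ± 3995 in the inputs. A normalized count is the number of reads on a gene divided by 1 size factor per library, and it is not corrected for transcript length, so levels are compared between libraries and not between genes. RIP replicate 2 stood apart: 14786 genes had no read in it, against 6720 and 6398 in the other RIP libraries. Its log2 values correlated with theirs at r = 0.917 and 0.922 across 12370 genes, where RIP 1 and RIP 3 reached 0.981. Mitochondrially encoded RNA took 0.931% to 1.12% of the RIP reads and 18.6% to 26.6% of the input reads, and with small and mitochondrial RNA left out of the totals the median log2 difference of all genes was 0.085.

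Differences were tested with limma on log2(normalized count + 1), with an adjusted p under 0.05 as the threshold and n = 3 libraries on each side. Log2 differences are RIP minus input, so that 1 is a doubling in the RIP on that scale. Of the 61 members, 55 averaged at least 10 normalized counts over the 6 libraries and were tested. Of these, 22 were higher in the RIP, 4 were lower and 29 did not pass the test. Over all 16765 genes tested, 22.4% were higher and 21.2% were lower, and among the 13367 protein-coding ones 26.0% and 25.3%. The share of F-box mRNAs called higher was thus 40%, above the background, and the share called lower was 7.27%, below it. All 3 RIP libraries lay above all 3 inputs for 23 members, where 27.4% of all tested genes did so, and below them for 8, where 27.3% did. The median log2 difference of the 55 was 0.25, beside a median of -0.043 for all genes tested.

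Size and scaling bear on these counts. At a change of at least 2-fold, 13 members were higher and 1 was lower, beside 11.4% and 10.6% of all genes. Members were well covered, with 49 of the 55 averaging 100 normalized counts or more, and among genes at that level 30.8% were called higher and 29.4% lower when they were tested alone. That setting called 22 members higher and 5 lower, the added one being FBXW4. Scaling by total reads, in place of the authors' size factors, moved the median of all genes to 0.44 and that of the members to 0.74. It called 33 members higher and 0 lower, where 36.7% and 9.86% of all genes were called. Without RIP replicate 2, 24 members were higher and 6 lower, where 22.7% and 22.1% of all genes were, and the median of the members was 0.56.

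The counts also moved under other settings. Totals without small and mitochondrial RNA gave 24 higher and 3 lower members (25.8% and 17.7% of all genes), and TMM scaling gave 22 and 3 (23.5% and 19.9%). With no low-count filter there were 22 and 3 (11.9% and 11.2%), and at an adjusted p under 0.01 there were 20 and 2 (16.4% and 15.6%). Without input replicate 3 there were 22 and 2 (19.7% and 17.8%). The authors' deposited table gave 22 higher and 7 lower members (20.6% and 19.9%), the added ones being FBXO22, FBXO44 and FBXW4.

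**Figure D1:**
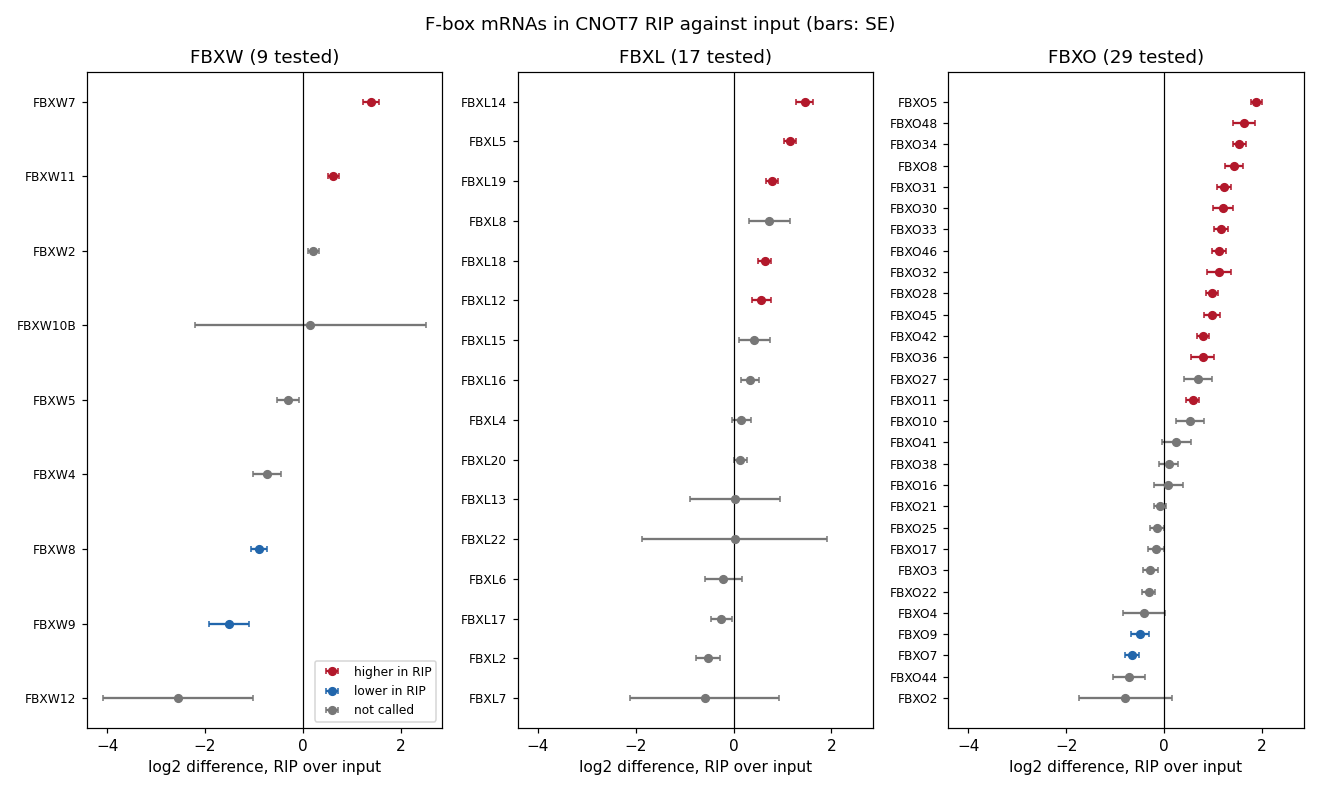
Log2 difference of RIP over input (x axis, log2 of normalized count + 1) for the 9 FBXW, 17 FBXL and 29 FBXO mRNAs tested, with bars for the standard error and colours for higher, lower and not called, and with 1 FBXL mRNA not drawn. FBXO5 is the highest at 1.89, and the widest bars belong to members with few reads such as FBXW10B and FBXW12.

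Among the WD40-repeat receptors, 9 of 10 were tested, with 2 higher, 2 lower and a median log2 difference of -0.30, or 0.19 with total-read scaling. The shares called, 22.2% in each direction, were close to the 22.4% and 21.2% of all genes tested. FBXW7, the receptor that marks cyclin E, MYC and NOTCH for destruction, had 3783, 2482 and 3219 normalized counts in RIP 1 to 3, against 1221, 1129 and 1195 in the inputs. Every RIP library lay above every input, and the log2 difference was 1.40 (SE 0.16, limma adjusted p = 3e-05). FBXW11, the β-TrCP2 receptor of phosphorylated β-catenin and IκB, had 8553, 8542 and 8861 in the RIP, against 5237, 5862 and 5846 in the inputs. Its 3 RIP libraries differed little among themselves, and the difference was 0.62 (SE 0.11, limma adjusted p = 0.00062). The related β-TrCP1 mRNA, BTRC, which has a symbol of its own and is no member, had 5593, 5384 and 5649 in the RIP, against 4701, 4685 and 4053 in the inputs (log2 difference 0.31, limma adjusted p = 0.046).

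FBXW8, which works with the cullin CUL7, went the other way, with 712, 714 and 629 normalized counts in the RIP, against 1318, 1393 and 1138 in the inputs. The groups did not overlap, and the log2 difference was -0.90 (SE 0.17, limma adjusted p = 0.00092). FBXW9 had 113, 134 and 80.7 in the RIP, against 187, 362 and 422 in the inputs, again without overlap (-1.51, SE 0.41, limma adjusted p = 0.01). Its inputs were spread more than 2-fold, and without input replicate 3 it did not pass the test. Neither mRNA passed the test when libraries were scaled by total reads (limma adjusted p = 0.085 for FBXW8 and 0.052 for FBXW9). FBXW2, among the members with the most reads, had 5877, 5390 and 5763 in the RIP, against 5550, 4716 and 4467 in the inputs. Here the groups overlapped, and the difference of 0.21 (SE 0.12) did not pass the test (limma adjusted p = 0.18). It passed with total-read scaling (0.71, limma adjusted p = 0.0011) and with totals that left out small and mitochondrial RNA (0.34, limma adjusted p = 0.038). FBXW4 just missed it at -0.73 (limma adjusted p = 0.053), with RIP replicate 2 the lowest of its libraries at 299 normalized counts. It was called lower in 6 of 16 alternative settings, but without RIP replicate 2 it was at -0.38 (limma adjusted p = 0.13).

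**Figure D2:**
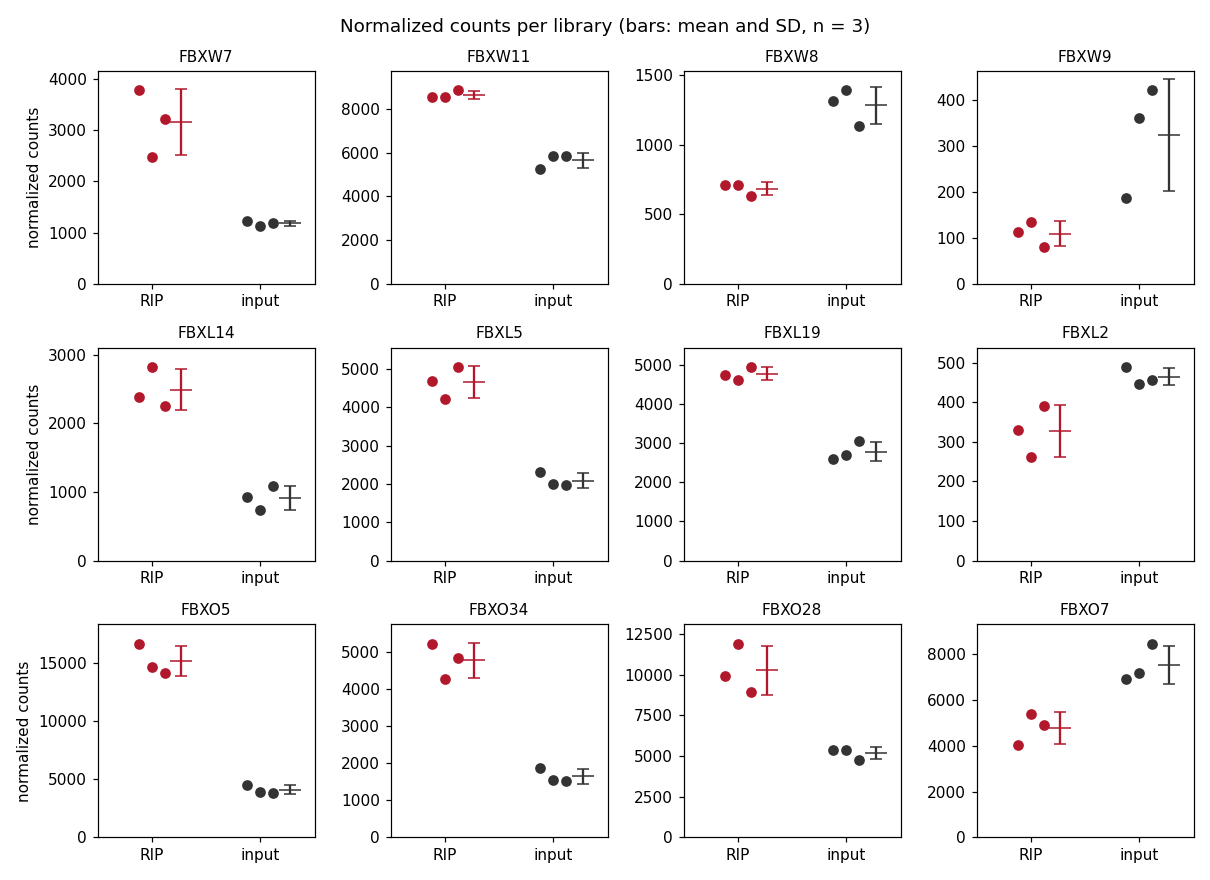
Normalized counts (y axis) of 12 F-box mRNAs in each library, with the RIP libraries left of the inputs, points for libraries and lines for mean and SD. RIP points lie above every input point for FBXW7, FBXW11, FBXL14, FBXL5, FBXL19, FBXO5, FBXO34 and FBXO28, and below every input point for FBXW8, FBXW9, FBXL2 and FBXO7.

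All 17 leucine-rich-repeat receptors were tested, with 6 higher (35.3%) and 0 lower, beside 22.4% and 21.2% of all genes tested. Their median log2 difference was 0.33. The median was 0.83 with total-read scaling and 0.56 without RIP replicate 2. FBXL14, known for the turnover of SNAI1, a driver of epithelial-mesenchymal transition, had 2386, 2819 and 2248 normalized counts in the RIP, against 930, 734 and 1079 in the inputs. Every RIP library held more than 2 times the counts of every input, and the log2 difference was 1.45 (SE 0.17, limma adjusted p = 3.5e-05). FBXL5, the iron-sensing receptor of the iron regulatory protein IREB2, had 4702, 4218 and 5057 in the RIP, against 2317, 1992 and 1964 in the inputs. Its difference was 1.16 (SE 0.13, limma adjusted p = 2.2e-05).

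FBXL19, a CpG-island-binding protein related to the histone demethylases KDM2A and KDM2B, had 4759, 4629 and 4953 normalized counts in the RIP, against 2609.6, 2698 and 3056 in the inputs. The log2 difference was 0.78 (SE 0.12, limma adjusted p = 0.0002). FBXL18 followed at 0.64 (limma adjusted p = 0.0018). FBXL12 was at 0.57 (limma adjusted p = 0.028), and it did not pass the test when RIP 1, RIP 3, input 1 or input 2 was left out. FBXL2, a membrane-anchored receptor, had 331, 262 and 391 in the RIP, against 490, 448 and 457 in the inputs. Its RIP values all lay below its inputs, but the difference of -0.52 (SE 0.25) did not pass the test (limma adjusted p = 0.12). The other 10 FBXL mRNAs ran between -0.59 for FBXL7 and 0.72 for FBXL8, and FBXL4, a mitochondrial receptor linked to mitophagy, stood at 0.16 (SE 0.19). FBXL7 and FBXL22 had no read in RIP replicate 2. For FBXL7 the sign turned with that library: its mean was 36.5 normalized counts in the RIP and 22.9 in the inputs, and the log2 difference was 1.34 without RIP replicate 2 and 0.68 with edgeR, not called in either (adjusted p = 0.13 and 0.77).

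The FBXO group had 29 of 34 members tested, with 14 higher (48.3%) and 2 lower (6.9%), beside 22.4% and 21.2% of all genes. Their median log2 difference was 0.58, or 1.08 with total-read scaling. FBXO5, or EMI1, is the inhibitor that holds the anaphase-promoting complex in check before mitosis, and it gave the largest positive difference of all 55 members. It had 16611, 14630.1 and 14131 normalized counts in the RIP, against 4525, 3903 and 3851 in the inputs. The lowest RIP value was more than 3 times the highest input, and the log2 difference was 1.89 (SE 0.12, limma adjusted p = 7e-07). FBXO34 had 5220.1, 4263 and 4837 in the RIP, against 1876, 1537 and 1523 in the inputs (1.54, SE 0.14, limma adjusted p = 4.5e-06). FBXO48 had 1135, 1205 and 761 in the RIP, against 348, 333 and 299 in the inputs (1.63, SE 0.23, limma adjusted p = 0.00012). In both cases every RIP library held more than 2 times the counts of every input.

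FBXO8, which carries a Sec7 domain, had 1654, 2434 and 1812 normalized counts in the RIP, against 709, 662 and 803 in the inputs (log2 difference 1.42, SE 0.18, limma adjusted p = 5.5e-05). FBXO31, a receptor for cyclin D1 after DNA damage, had 2499, 2199.65 and 2772 in the RIP, against 1022, 1062 and 1086 in the inputs (1.23, SE 0.14, limma adjusted p = 2.9e-05). For both, RIP and input were far apart relative to the spread within each. FBXO32, or atrogin-1, the receptor induced in wasting muscle, had 879, 1330.07 and 756 in the RIP, against 381, 522 and 434 in the inputs (1.12, SE 0.24, limma adjusted p = 0.0025). FBXO28 had 9942, 11901 and 8939 in the RIP, against 5402, 5358 and 4774 in the inputs (0.98, SE 0.13, limma adjusted p = 7.5e-05). FBXO11, which directs the degradation of BCL6, had 5139.7, 4850.1 and 4547 in the RIP, against 3658, 3224 and 2866 in the inputs (0.58, SE 0.13, limma adjusted p = 0.0027). Its groups were separate but closer together than those of the mRNAs above.

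The remaining higher FBXO mRNAs were FBXO30, FBXO33, FBXO46, FBXO45, FBXO42 and FBXO36, with log2 differences between 0.79 and 1.20. FBXO45 works with the large ligase MYCBP2 in neurons rather than as a plain SCF receptor, and FBXO42 is known to bind p53. In all, 9 of the 14 reached at least 2-fold, where 1904 of the 3758 genes called higher over all genes did. FBXO36 lost its call when input replicate 2 was left out.

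In the opposite direction, FBXO7, whose mutation causes an early-onset parkinsonian syndrome, had 4021, 5387 and 4926 normalized counts in the RIP, against 6919.55, 7189.58 and 8461 in the inputs. The groups did not overlap, and the log2 difference was -0.66 (SE 0.14, limma adjusted p = 0.0019), although with total-read scaling it was -0.17 and did not pass the test. FBXO9 had 1214, 1957 and 1593 in the RIP, against 2023, 2423 and 2165 in the inputs (-0.50, SE 0.18, limma adjusted p = 0.039). This was the least stable call of the family, lost in 9 of 16 alternative settings. FBXO22, a receptor of the histone demethylase KDM4A, had 2056, 2346 and 2503 in the RIP, against 2623, 2896 and 3049 in the inputs. The difference of -0.31 (SE 0.13) did not pass the test (limma adjusted p = 0.076).

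Of the 5 FBXO genes that share the FBA domain, which binds N-linked sugars in FBXO2 and FBXO6, FBXO6 was not tested and none of the others passed. FBXO44 was at -0.72 (limma adjusted p = 0.093), FBXO27 at 0.69 (limma adjusted p = 0.076), FBXO17 at -0.17 and FBXO2 at -0.80 (limma adjusted p = 0.53). With total-read scaling FBXO27 was called higher (1.18, limma adjusted p = 0.0037). Without RIP replicate 2 FBXO44 was called lower (-0.91, limma adjusted p = 0.016). FBXO6 had 2 reads in 1 input and 0 in the RIP, under the 3 reads taken as the limit that a count of 0 allows. FBXO2, FBXO44 and FBXO6 are neighbours on chromosome 1 (chr1:11648387-11654429, chr1:11654407-11663327 and chr1:11664200-11674354 in GRCh38.p14), and FBXO17 and FBXO27 lie on chromosome 19 (chr19:38941401-38975742 and chr19:39005842-39032549). FBXO2 and FBXO44 start head to head on opposite strands and share their first 23 bases. The first 30 bases of FBXO44 (RefSeq, GRCh38.p14, chr1:11654407-11654436, plus strand) are shown with the shared bases in capitals, because reads there belong to either gene unless the strand is known.
FBXO44: GAGTCCCGGCGCTGTCCGCGTCTgtgtcgg

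The test left out 6 members: FBXW10, FBXO6, FBXO15, FBXO24, FBXO40 and FBXO43. A further 6 averaged under 100 normalized counts, and their errors were wide: FBXL13, FBXL22 and FBXL7, FBXO2, FBXW12 and FBXW10B ran between -2.55 and 0.15 with none called. These log2 values went against the means for FBXL7, described above, and for FBXW10B, which averaged 5.42 normalized counts in the RIP and 18.3 in the inputs (0.15, or -1.73 with edgeR). Of the tested members, 4 had no read in RIP replicate 2. FBXW10 and FBXW10B are copies on chromosome 17, and the 100 bases before their starts are identical (RefSeq, GRCh38.p14, chr17:18743954-18744053, plus strand, for FBXW10, and chr17:15619705-15619804, minus strand, for FBXW10B). They are printed to show how alike the copies are beside their starts. The transcribed sequences were not compared here. Lower case stands throughout since no base differs.
FBXW10: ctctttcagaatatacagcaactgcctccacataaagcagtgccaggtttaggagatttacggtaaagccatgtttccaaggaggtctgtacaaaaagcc
FBXW10B: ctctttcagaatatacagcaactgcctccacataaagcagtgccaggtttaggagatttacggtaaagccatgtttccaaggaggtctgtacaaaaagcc
Over the wider windows, 298 of 300 bases were identical. FBXW10 had 3 reads in the RIP and 6 in the inputs, and FBXW10B had 20 in the RIP and 48 in the inputs, all 48 of them in input 2.

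Members lay on 20 chromosomes, those called higher on 13 and those called lower on 4. In the RefSeq annotation 27 of the 61 overlap another gene, as FBXO11 does MSH6, FBXO34 does ATG14 and FBXL19 its antisense transcript FBXL19-AS1. Whether the counting used strand was not given in the sources used here, and reads of overlapping genes may have been mixed. Of the 22 mRNAs called higher, 11 overlapped another gene and 11 did not.

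**Figure D3:**
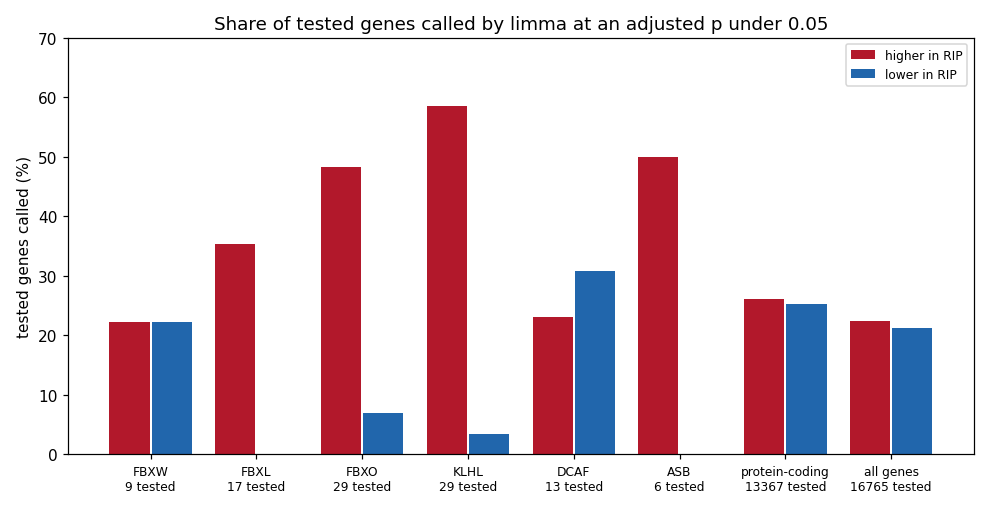
Percent of tested genes called higher (left bars) and lower (right bars) in the RIP for the F-box subfamilies, for 3 other families of ligase receptors, for protein-coding genes and for all genes. FBXL, FBXO, KLHL and ASB mRNAs have more higher than lower calls, FBXW mRNAs have as many of each, and DCAF mRNAs have more lower calls. All genes have 22.4% higher and 21.2% lower.

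Receptors of other cullin ligases offer a comparison, beside the 22.4% higher and 21.2% lower of all genes tested. KLHL proteins, which bring substrates to CUL3, had 29 of 35 mRNAs tested, with 17 higher (58.6%) and 1 lower (3.4%). Their median log2 difference was 0.83. DCAF proteins, the receptors of CUL4, had 13 tested, with 3 higher (23.1%), 4 lower (30.8%) and a median of 0.011. ASB proteins, receptors of CUL5, had 6 of 15 tested, with 3 higher (50%), 0 lower and a median of 0.46. With total-read scaling the medians were 1.33 for KLHL, 0.50 for DCAF and 0.95 for ASB. Whether these families or the F-box subfamilies differ from each other was not tested.

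F-box proteins that go by other symbols were counted apart, and 9 of 11 had a row in the table. Of these, 4 were higher in the RIP (44.4%) and 2 were lower (22.2%), beside 22.4% and 21.2% of all genes tested. Their median log2 difference was 0.39. KDM2A, a histone demethylase with an F-box, had 7170.13, 6273 and 7312 normalized counts in the RIP, against 3493, 3421 and 3074 in the inputs (1.05, limma adjusted p = 2.3e-05). CCNF, or cyclin F, had 3426, 5008 and 4348 in the RIP, against 2576, 2803 and 2867 in the inputs (0.62, limma adjusted p = 0.0047). KDM2B was at 0.39 (limma adjusted p = 0.029) and, like BTRC, did not pass in several alternatives. SKP2, the receptor that destroys the cell cycle inhibitor CDKN1B, was lower, with 5574, 6261 and 5590.02 in the RIP, against 10250.4, 9846 and 10702 in the inputs. Its groups were far apart, and the difference was -0.82 (limma adjusted p = 8.2e-05). TSPAN17 was at -0.72 (limma adjusted p = 0.0045), and it did not pass with total-read scaling. Whether the protein of each gene on this list, TSPAN17 included, holds an F-box was not examined.

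**Figure D4:**
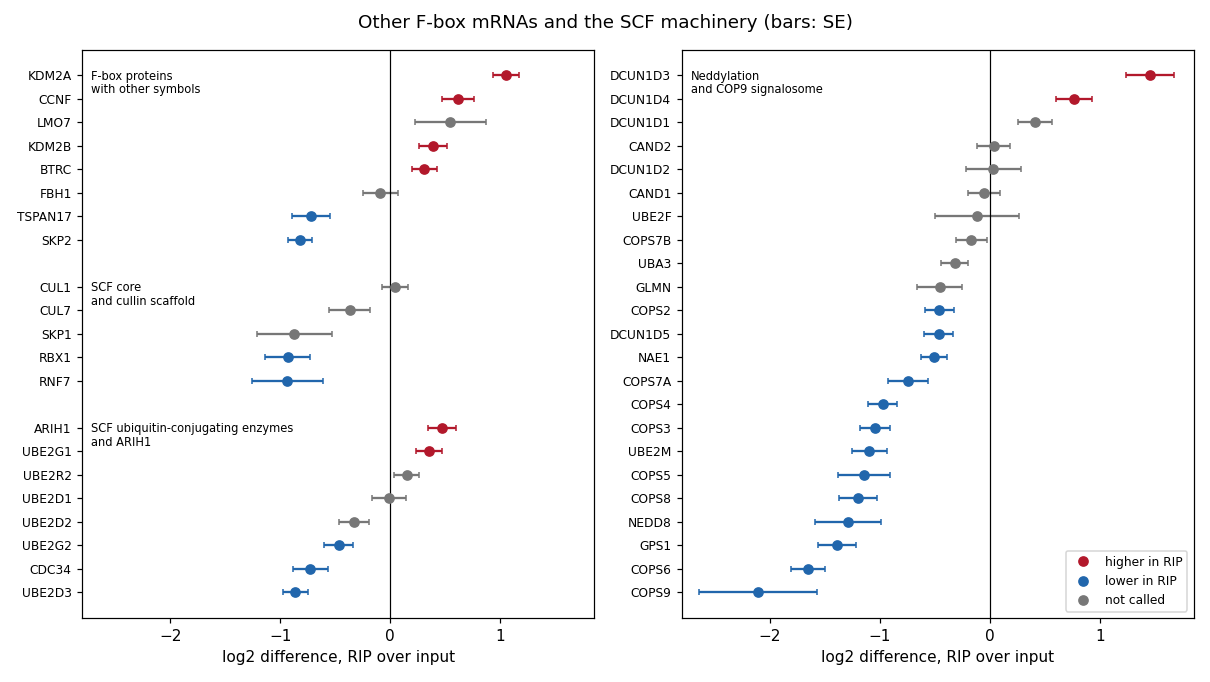
Log2 difference of RIP over input (x axis, log2 of normalized count + 1) with standard errors for F-box proteins with other symbols, the SCF core, ubiquitin-conjugating enzymes with ARIH1, and neddylation and COP9 signalosome genes. ECT2L, which has another symbol and was at 2.63 (SE 2.73, not called), is not drawn. KDM2A is at 1.05 and SKP2 at -0.82. With the authors' size factors 18 of 23 neddylation and COP9 genes lie below 0, where 8611 of all 16765 genes tested do. The median of these 23 is 0.026 with total-read scaling.

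The shared parts of the ligase can be read against the same background of 22.4% higher and 21.2% lower. The list for the SCF core held 5 mRNAs, those of CUL1, SKP1, RBX1, RNF7 and the separate cullin CUL7. All were tested, with 0 higher and 2 lower by limma, and a median log2 difference of -0.87, or -0.38 with total-read scaling. The RING protein RBX1 had 750.2, 586 and 975 normalized counts in the RIP, against 1279.74, 1459 and 1605 in the inputs (-0.93), and its relative RNF7 was at -0.94. RNF7 did not pass in 8 of its 16 alternatives and had 946 in RIP replicate 2, above 2 of its inputs. SKP1 was at -0.87 (limma adjusted p = 0.058) and CUL7 at -0.37 (limma adjusted p = 0.13), while the scaffold CUL1 was at 0.04. The list for neddylation and the COP9 signalosome holds genes that attach or remove NEDD8, the modifier that switches cullins on, as well as the receptor-exchange factors CAND1 and CAND2 and the RBX1 inhibitor GLMN. In it 2 of 23 were higher and 13 lower, with a median of -0.47, or 0.026 with total-read scaling. The 2 higher were DCUN1D3 at 1.45 and DCUN1D4 at 0.76, both of which help load NEDD8 onto cullins. Of the 8 mRNAs for ubiquitin-conjugating enzymes and ARIH1, 2 were higher and 3 lower, with a median of -0.17, or 0.32 with total-read scaling.

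The RIP means can also be set against the remaining 3 inputs, for which no SD can be had. Of the 55 members tested, 36 lay above the mean of these inputs and 19 below, with a median log2 ratio of 0.35. Among all 16765 genes tested, 8521 lay above it and 8244 below. By subfamily the medians were -1.16 for FBXW, 0.35 for FBXL and 0.77 for FBXO, beside 0.016 for all genes tested. Of the 22 mRNAs called higher, 21 were also above this mean, among them FBXO5 at 2.28, FBXW7 at 1.83 and FBXL14 at 1.52. FBXO42 was the exception at -0.23. Of the 4 called lower, 3 were also below it, and FBXO9 was above it at 0.27. Both sets of inputs are compared with the same RIP libraries. The sets differed in CNOT7, with a mean of 24800 normalized counts in the input columns and 4240 in the remaining inputs. Whether they differ in doxycycline treatment was not tested.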

How the data were processed

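Per the submitters' processing notes, STAR, featureCounts, DESeq2 and GRCh38 were used, with no versions listed. Annotation release, strand and count filter were not given in the sources used here. In each deposited library column, the signal was a gene count that the authors divided by 1 size factor per library. Every value was a whole multiple of 1 read within 0.01 (100% of values), so reads were recovered. Per the file headers, the authors deposited DESeq2's log2 fold with its standard error, the Wald score, the p-value and its adjusted form. The log2 fold matched the ratio of the RIP and input columns (median absolute difference 0.000342), and the deposited mean covers 9 libraries, which gave the mean of the remaining 3 inputs.

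Input column names fit libraries with and without doxycycline, so they were 1 group, input. Since separate cultures are not stated in the labels, p-values measure only the spread between these libraries, which may be technical. Genes averaging at least 10 normalized counts over the 6 libraries (16765) were tested with limma 3.58.1 in R 4.3.3 (lmFit, eBayes with trend) on log2(normalized count + 1), with Benjamini-Hochberg adjustment over all of them. As a check on simulated data of 16765 genes, the test recovered 48% of 100 genes shifted by 1 on the log2 scale. It recovered 3% of 100 shifted by 0.5, and 3.77% of its calls were false. No other genes were shifted there, whereas in the data 22.4% were called higher and 21.2% lower. These recovered shares therefore do not give the sensitivity of the test on the data. Intervals and floors of 3 reads, 2.24 to 2.48 normalized counts in the RIP and 3.13 to 3.49 in the inputs, cover counting error only. Alternatives were other scalings (total reads, total without small and mitochondrial RNA, TMM), another pseudocount, other filters, edgeR 4.0.16 and DESeq2 1.42.0 on recovered reads, the authors' deposited table, leaving out each library, and the replicate number as a block. On recovered reads edgeR called 3714 genes higher and 3435 lower.

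Members, families and gene lists were chosen with earlier results of these data known. Given with values were up to 8 called members most changed in each direction with a mean of at least 50 normalized counts. Only 4 were called lower. Also given were the 2 with the highest mean per subfamily and a fixed set of well-studied members. Called genes of the SCF core and of F-box proteins with other symbols were given too. Other names were chosen after their values were seen. The values of 1 FBXL member are not reported here, although counts and medians include it. Positions and sequences are from RefSeq, GRCh38.p14, where 61 members had a position and 47 a promoter window. Plots were drawn with matplotlib 3.10.9.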

Additional observations from a re-analysis of the deposited data

How the results depend on the processing

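Of the 22 mRNAs called higher, 20 were called higher in all 16 alternatives, the exceptions being FBXL12 and FBXO36. Scaling by total reads called 6154 genes higher and 1653 lower over all genes, with 0 lower among members, 0 in FBXW and 0 in FBXO, and 11 higher in FBXL. With it FBXO22 turned to 0.18 (limma adjusted p = 0.31). At least 2-fold, 1904 genes were higher and 1779 lower, with 13 members higher and 1 lower (FBXW 1 and 1, FBXL 3 higher, FBXO 9 and 0). At an adjusted p under 0.01, 2 members were lower, 1 FBXW and 1 FBXO. FBXO had 1 lower call without small and mitochondrial RNA in the total, with TMM and with no low-count filter. By the authors' deposited table, lower members numbered 7, of which 4 were FBXO. Leaving out each library gave 2 to 6 lower members (2 without input replicate 3), with 1 to 3 lower in FBXW and in FBXO, and 5 to 7 higher in FBXL. Over all genes the same settings called 17.2% to 22.1% lower and 18.7% to 22.7% higher. RIP replicate 2 has many genes without reads, which limits members with few reads.

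Same-numbered RIP and input libraries did not all deviate together (correlations of 0.255, 0.0025 and 0.239 across genes), and 5 of 6 libraries correlated best with their own number, a hint from the data only. With the replicate block, 22 members were higher and 6 lower, and over all genes 4053 were higher (24.2%) and 3925 lower (23.4%).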
